A study of Rattus norvegicus with 18 samples.

Results

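Dense methylated tiles are stretches of 1000 bp that hold many measured CpG cytosines and are nonetheless heavily methylated. They were taken from a table of methylation levels at single cytosines in rat hippocampus, as the tiles on chromosomes 1 to 20 with at least 40 measured cytosines and a mean level, over all of those cytosines and all 18 rats, of at least 60%. The rule kept 386 tiles with 20122 cytosines. They are 3.06% of the 12629 tiles with at least 40 cytosines (dense tiles) and 0.204% of the 189161 tiles with any measured cytosine on these chromosomes. Each CpG has a cytosine on both strands, and the table lists these separately.

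CpG islands are short regions where CpG dinucleotides stay frequent. Many lie at gene promoters, and those are mostly free of methylation. Outside islands the mammalian genome is CpG-poor and mostly methylated, because methylated cytosines mutate readily and are lost. A minority of islands are methylated in normal tissue: they occur within gene bodies and repeats, at germline genes silenced in somatic cells, on the inactive X chromosome and on 1 parental copy of imprinted genes. Reduced representation bisulfite sequencing, used here, cuts DNA with MspI at CCGG and reads fragment ends after bisulfite treatment, so that it favours CpG-rich DNA and sees only the part of a tile near such cuts.

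The study compared 2 rat models of acquired temporal lobe epilepsy in adult male Sprague-Dawley rats, an outbred stock. Electrical kindling through hippocampal electrodes gave 4 rats with seizures and 4 kindling sham rats. Systemic kainic acid, given in increments until status epilepticus, gave 3 rats with seizures and 7 kainic acid sham rats. In both models the seizure rats are labelled with 3 class V seizures. The left hippocampus was taken 24 hours after the last seizure, and the labels do not say what the sham rats received. The tissue is bulk hippocampus: a change in methylation within cells and a change in the mix of cell types cannot be told apart. Positions are in the rat genome build rn6. No gene annotation or genome sequence of that build was used here, so tiles are named by position only.

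Read depth is unknown, because the table holds only levels, and no value was missing. Within the 386 tiles, 9.94 to 18.5% of a rat's values stood at exactly 100%, and the levels on the 2 strands of a CpG differed with an SD of 6.11 to 8.08 points over 9413 CpGs, depending on the rat (a point is 1 percentage point of methylation). Kindling seizure rat 4 stood apart most often: it was the highest of the 18 rats in 46 tiles and the lowest in 37, more than any other rat in either count. Where kindling counts and tile differences were recomputed without it and moved by more than 1.5 times, both values are given.

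Dense tiles gathered at both ends of the scale. Under 10% stood 6356 dense tiles, and 5155 stood between 10 and 20%. The numbers then shrank to 458, 125, 94 and 55 in the next 4 steps of 10 points, and grew again through 56 tiles at 60 to 70%, 59 at 70 to 80% and 109 at 80 to 90% to 162 at 90 to 100%. The rule's level minimum thus lies close to the emptiest step. The 386 tiles had a median level of 88.6%, with quartiles of 77.6 and 93.5% and extremes of 60.1 and 98.0%. The tiles were chosen by these levels, which are given as a description.

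**Figure D1:**
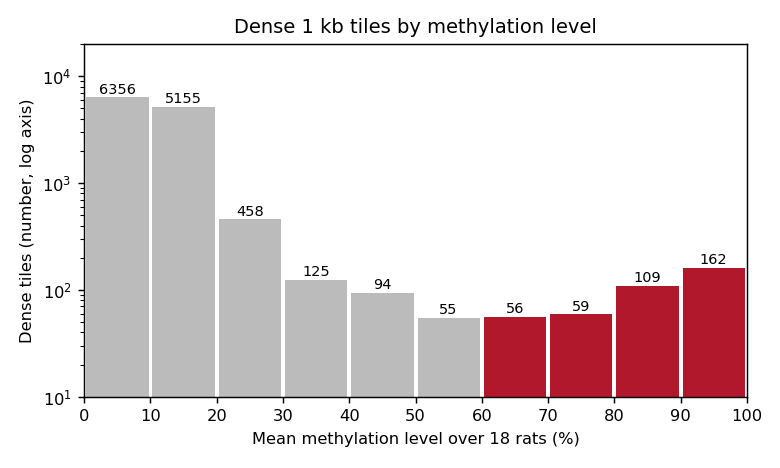
Number of dense 1 kb tiles (log axis) by mean methylation level over 18 rats in steps of 10 points. Red bars are the 386 tiles at 60% or above, grey bars the dense tiles below; the counts are lowest, at 55 to 59 tiles, between 50 and 80%.

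Tiles just outside the rule differed little from those inside. On chromosome 7, the tile from 12706001 to 12707000 missed the level minimum with 59.7% over 42 cytosines, while the lowest tile inside stood at 60.1%. Among tiles with 39 cytosines, 1 short of the minimum, 30 had a level of at least 60%, between 64.6 and 96.3%. At the other side of that threshold many of the chosen tiles were near the minimum, with a median of 46.5 cytosines and a highest count of 156. Under 60 cytosines were measured in 81.1% of them, against 34.5% of the 11511 dense tiles below 20%, and at least 100 in 10 tiles, against 2918.

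The methylated tiles were thinner in CpGs than the unmethylated ones that passed the same minimum. They held 20 to 81 CpGs with a median of 25, spread over a median of 606.5 bp, which came to a median of 4.59 CpGs per 100 bp of measured span. The dense tiles under 20% had a median of 40 CpGs and of 7.86 CpGs per 100 bp. The 732 dense tiles from 20 to under 60% lay between, with 5.19. The rule's minimum on cytosines and the reach of MspI fragments enter these densities, and they were not tested.

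At the top of the scale, methylation was uniform from cytosine to cytosine and from rat to rat. The highest tile, on chromosome 18 from 377001 to 378000, averaged 98.0% with all 64 cytosines above 80%, an SD of 0.857 points among cytosines and a range of 0.670 points over the 18 rats. The tile with the most measured cytosines, on chromosome 1 from 148444001 to 148445000, averaged 95.9%, with 155 of its 156 cytosines above 80%. Its level was 96.2, 96.3, 95.8 and 95.2% in kindling seizure rats, against 96.0, 95.4, 95.6 and 95.5% in kindling sham rats. It was 96.0, 95.9 and 96.1% in kainic acid seizure rats, against 95.7 to 96.4% with a median of 96.2% in kainic acid sham rats. All 18 values lay within 1.13 points, and the groups overlapped in both models. Another tile with many cytosines, on chromosome 1 from 101002001 to 101003000, had all 113 above 80% and a range of 0.899 points over the rats.

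Tiles of 60 to 70% consisted mostly of cytosines of intermediate level, with few unmethylated ones. In that class 69.4% of cytosines had an 18-rat mean between 20 and 80%, 28.5% were above 80% and 2.06% were under 20%. The share between 20 and 80% was about as large within single rats, from 65.2 to 69.5% with a median of 68.0%, so the intermediate values were present in each rat and did not come from averaging over rats. The share of intermediate cytosines was smaller in each higher class, with 55.1% at 70 to 80%, 23.5% at 80 to 90% and 2.93% at 90 to 100%. Of the 386 tiles, 327 had no cytosine under 20%. The dense tiles below 20% had another make-up: 91.7% of their cytosines were under 20%, 0.451% between 20 and 80% and 7.87% above 80%.

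Among tiles with intermediate cytosines, the tile with the second-highest number of cytosines is an example. On chromosome 7 from 12851001 to 12852000, it averaged 66.5% over 128 cytosines, of which 4 were under 20%, 81 between 20 and 80% and 43 above 80%. The levels were 67.9, 69.2, 68.9 and 61.6% in kindling seizure rats, against 68.2, 65.96, 64.6 and 66.4% in kindling sham rats. Kainic acid seizure rats had 68.7, 66.1 and 68.4%, against 63.4 to 68.1% with a median of 66.7% in kainic acid sham rats. Kindling seizure rat 4 was the lowest of the 18, and the groups overlapped in both models. The tile with the largest SD among cytosines, on chromosome 8 from 117361001 to 117362000, averaged 61.9% with 7 cytosines under 20%, 24 between 20 and 80% and 23 above 80%, an SD of 31.9 points.

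The spread between rats followed the level. The median range over the 18 rats was 9.73 points in the class of 60 to 70%, 9.15 at 70 to 80%, 5.53 at 80 to 90% and 2.38 at 90 to 100%. A range of at least 5 points was found in 53 of 56, 55 of 59, 61 of 109 and 12 of 162 tiles of these classes. Thinner tiles of 20 to 39 cytosines gave much the same medians at the same levels, with 10.2, 8.68, 5.84 and 3.07 points. A level near the top of the scale leaves less room for spread.

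A few tiles varied far more between rats than the others. The widest lay near the start of the measured part of chromosome 15, from 50001 to 51000, with a range of 27.6 points over 54 cytosines. Its level was 71.4, 76.9, 64.8 and 59.6% in kindling seizure rats, against 65.5, 65.3, 62.0 and 64.9% in kindling sham rats. With kainic acid it was 63.8, 68.8 and 68.3% after seizures, against 49.4 to 73.6% with a median of 60.1% in sham rats. The groups overlapped in both models, and the kainic acid sham rats alone nearly spanned the range. On chromosome 3 from 153131001 to 153132000 the range was 18.2 points. Kindling seizure rats had 93.9, 91.0, 91.0 and 91.9%, against 75.9, 93.5, 91.3 and 78.9% in kindling sham rats. Kainic acid seizure rats had 75.7, 81.5 and 88.8%, against 77.3 to 90.9% with a median of 88.3% in kainic acid sham rats. All kindling seizure rats were high, and each of the other 3 groups held rats at or under 81.5% beside rats at or above 88.3%, with none in between.

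Tiles lying next to each other shared these rat-to-rat differences more than tiles at large. Over the 22 pairs of adjacent methylated tiles, the correlation across 18 rats of deviations from the group means had a median r of 0.640, from -0.248 to 0.981, and was positive in 19. Over the 16290 pairs among the 181 tiles with a range of at least 5 points the median r was 0.0310. All pairs share the same 18 libraries, and an adjacent pair can share MspI fragments. These correlations are a description.

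The methylated tiles were unevenly spread over the chromosomes. Chromosome 7 held 55, or 6.17% of its dense tiles, chromosome 1 held 51 (3.39%), and chromosome 11 held 3 (0.955%). By share of dense tiles, chromosomes 12 (24 tiles, 5.05%) and 20 (18 tiles, 4.88%) came after chromosome 7. Of 1321 measured windows of 2 Mb, 241 held at least 1 of the tiles and 169 held a single one, while 9 windows with at least 5 held 63, or 16.3% of all, with 2.99% of the dense tiles. The fullest were neighbours on chromosome 7: the window from 12000001 to 14000000 held 14 among 73 dense tiles, and that from 10000001 to 12000000 held 11 among 59.

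**Figure D2:**
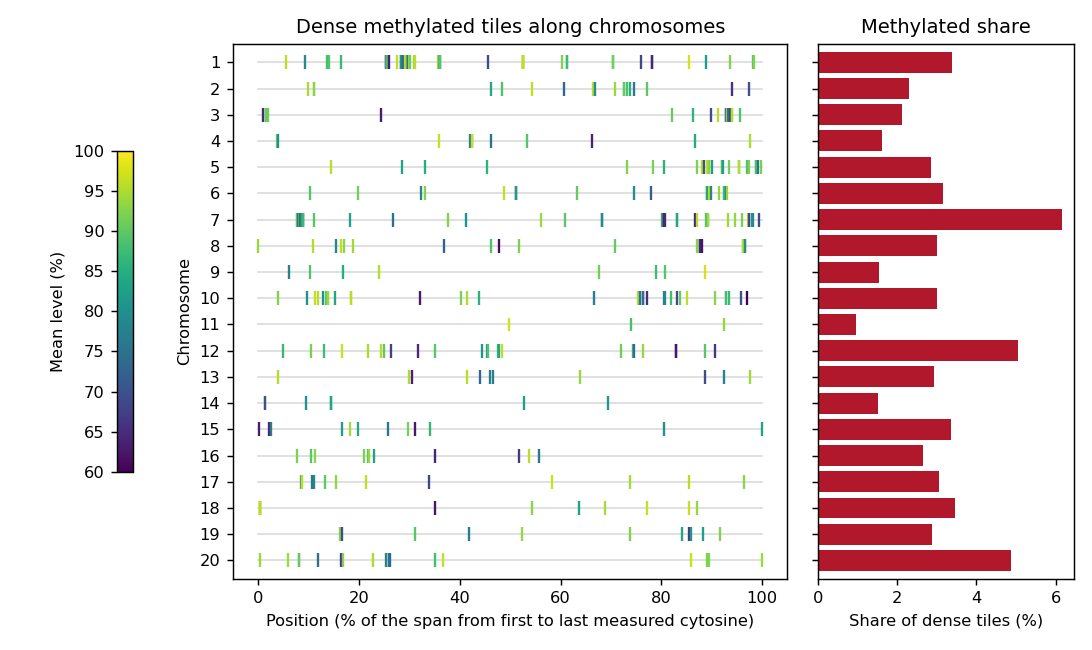
Left, positions of the 386 dense methylated tiles along chromosomes 1 to 20, as a percentage of the span from the first to the last measured cytosine, coloured by mean level over 18 rats (%). Right, the share of each chromosome's dense tiles that is methylated (%), highest on chromosome 7 at 6.17% and lowest on chromosome 11 at 0.955%.

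Linking tiles with gaps of at most 500 kb put 185 of them into 60 groups and left 201 alone. The largest group lay on chromosome 7 from 11261001 to 12913000. It held 25 tiles, 45.5% of those on the chromosome, among 110 dense tiles of which 77 were under 20%, so methylated tiles lay among unmethylated dense tiles there. The levels of the 25 ran from 61.3 to 94.5% with a median of 85.6%. Some smaller groups held a larger share of methylated tiles. On chromosome 1 from 72363001 to 72402000, 5 of 7 dense tiles were methylated, and on chromosome 18 from 292001 to 395000 also 5 of 7, with levels of 89.6 to 98.0%. On chromosome 3, 6 of 17 dense tiles from 164840001 to 165715000 were methylated.

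Unbroken runs were short. The longest were of 3 tiles: chromosome 1 from 72363001 to 72366000, with 237 cytosines and tile levels of 95.2 to 96.2%, and chromosome 8 from 116882001 to 116885000, with 152 cytosines and levels of 68.4 to 94.9%. The first was evenly methylated, and the second changed by over 20 points within 3 kb.

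The tiles lay nearer to chromosome ends than dense tiles under 20%. The median distance to the nearest end of the measured part of the chromosome was 17.9 Mb, against 27.9 Mb for dense tiles under 20% and 25.5 Mb for all tiles. Within 5 Mb of an end lay 47 tiles (12.2%), against 9.06% of the dense tiles under 20%, and within 2 Mb lay 16 (4.15%), against 2.89%. These distances were not tested, neighbouring tiles are not independent, and the distances were not matched by chromosome. The group of 25 tiles on chromosome 7 lay nearer to an end than the median of 17.9 Mb. Chromosomes 12 and 20, with high shares of methylated tiles, have short measured spans of 52.7 and 56.1 Mb.

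Where measured, the surroundings of the methylated tiles were methylated too. A tile with at least 3 cytosines lay 1 kb away in 42.2% of them on the lower and 47.2% on the upper side. From 2 to 10 kb away these shares were 17.9 to 27.7%. Directly beside the methylated tiles lay 345 measured tiles, of which 44 were dense methylated tiles themselves and so at 60% or above by the rule. Of the other 301, which had a median level of 89.4%, 254 (84.4%) stood at 60% or above and 10 under 20%. A high level was common in any case: of the 151450 tiles with at least 3 cytosines in the whole table, at least 103129 stood at 60% or above. Further out, the median was 83.9 and 87.5% at 2 kb on the lower and upper side, and 80.3 and 84.3% at 3 kb. Around dense tiles under 20% the medians were 11.5% at 1 kb, 29.7 and 27.1% at 2 kb and 56.3 and 57.6% at 3 kb. Other dense tiles under 20% were kept among these neighbours, so part of the low level follows from the choice of tiles. With the 44 kept likewise, the median at 1 kb from methylated tiles was 89.4% on both sides. Up to 1 kb the methylated tiles thus stood at about the level of their neighbours, with a median of 88.6% of their own, while the unmethylated ones lay in a trough. From 4 to 10 kb the medians around methylated tiles were 69.0 to 79.3%, with 15.5 to 29.0% of the measured tiles under 20%. At those distances the medians around dense tiles under 20% were 64.0 to 79.1%, so the surroundings were much alike.

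The distance to the nearest dense tile under 10% varied widely. It had a median of 54 kb, and 130 of the 386 had no such tile within 100 kb. The 5155 dense tiles between 10 and 20% were not counted here. With them the distances could only be equal or shorter. Within 10 kb, 69 (17.9%) had one, and within 2 kb 5 had one. Dense tiles under 10% lay at a median of 43 kb from each other, and 30.8% of them had another within 10 kb.

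**Figure D3:**
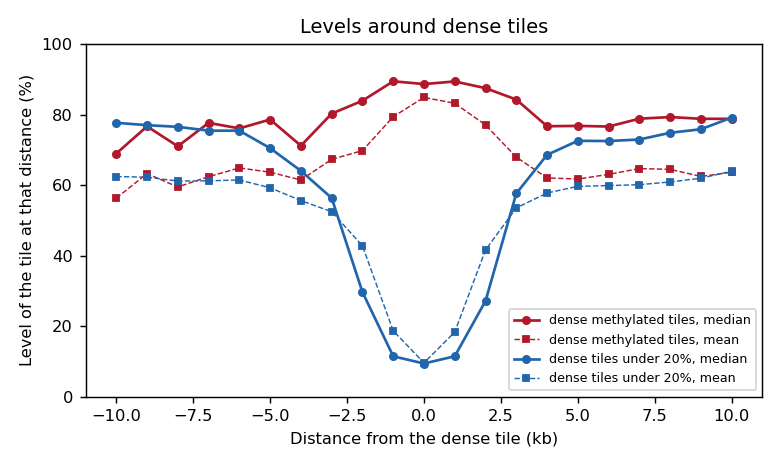
Median (solid) and mean (dashed) methylation level (%) of measured tiles by distance in kb from dense methylated tiles (red) and from dense tiles under 20% (blue). Beside a methylated tile the median is 89.4%, and beside a dense tile under 20% it is 11.5%, with dense tiles of the same kind kept among the neighbours.

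Averaged over the methylated tiles, seizure rats stood less than 1 point above sham rats in both models. The mean level over the 386 tiles was 85.4, 85.4, 85.5 and 84.7% in kindling seizure rats, against 84.8, 84.7, 84.7 and 85.1% in kindling sham rats. As means these were 85.2 ± 0.366% and 84.8 ± 0.177% (SD, n = 4 each), a difference of 0.440 points. Kindling seizure rats 1 to 3 stood above all kindling sham rats, rat 4 lay within the sham range, and the difference was 0.622 points without rat 4. Kainic acid seizure rats had 85.3, 84.6 and 85.0%, against 84.3 to 85.0% in kainic acid sham rats. The means were 85.0 ± 0.339% (SD, n = 3) and 84.6 ± 0.263% (SD, n = 7), a difference of 0.345 points, with overlapping groups. That difference was 0.194 points without seizure rat 1 and 0.528 without seizure rat 2. Other tiles also stood higher on average after seizures. Dense tiles under 20% averaged 9.73 ± 0.716% in kindling seizure and 9.46 ± 0.582% in kindling sham rats (SD, n = 4 each). For kainic acid these were 9.93 ± 0.123% after seizures (SD, n = 3) and 9.51 ± 0.417% in sham rats (SD, n = 7). The differences were 0.274 points in kindling and 0.423 in kainic acid. Tiles with 3 to 39 cytosines and the same level minimum differed by 0.224 points in kindling and 0.182 in kainic acid. Only the 0.423 points exceeded the difference of the 386 tiles in the same model. These differences were not tested against each other.

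Tile by tile, small positive differences (seizure minus sham) were in the majority. In kindling, 242 of 386 tiles (62.7%) were higher after seizures, with a median difference of 0.256 points, and the differences ran from -3.45 to 7.48. Over all tiles with at least 3 cytosines, 58.7% were higher, with a median of 0.192. In the kainic acid model 232 (60.1%) were higher, with a median of 0.184 points and differences from -5.61 to 8.02, against 60.8% and 0.242 over all tiles. Relative to those medians over all tiles, the median of the 386 was 0.0645 points in kindling and -0.0583 in kainic acid. Among the 181 tiles with a range of at least 5 points over the rats, 66.9% were higher in kindling and 67.4% in kainic acid, against 56.1 and 57.4% of the 84600 tiles that pass the same filter. Their medians were 0.677 and 0.610 points, against 0.299 and 0.310. Of the dense tiles under 20%, 83.9% were higher in kindling and 93.0% in kainic acid, with medians of 0.268 and 0.410 points. Differences within 1 point were found in 266 tiles in kindling and 279 in kainic acid, and 3 tiles in each model differed by more than 5 points in size.

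The median difference was larger in the lower level classes. In kindling it was 1.13 points in the class of 60 to 70% (44 of 56 tiles higher), 0.649 at 70 to 80% (38 of 59), 0.283 at 80 to 90% (66 of 109) and 0.105 at 90 to 100% (94 of 162). The kainic acid medians were 0.931, 0.650, 0.166 and 0.0323 points, with 40, 41, 63 and 88 tiles higher. Tiles of 20 to 39 cytosines had kindling medians of 0.594, 0.507, 0.326 and 0.103 points in the same classes, and kainic acid medians of 0.463, 0.377, 0.143 and 0.0958. The order from low to high level was therefore the same in the thinner tiles. The size of the difference in the lowest class depended on single rats. In both models its mean and median stayed positive with any 1 rat left out. Over its 56 tiles, kindling seizure rats 1 to 3 averaged 66.7, 66.4 and 67.4% and rat 4 averaged 64.2%, against 64.8 to 65.5% in kindling sham rats, so rat 4 lay below all sham rats and the others above them. The mean difference of the class was 0.940 points, 1.59 without seizure rat 4 and 0.531 without seizure rat 3. The median without seizure rat 3 was 0.511 points, and in the kainic acid model it was 0.513 without seizure rat 1. With any 1 rat left out, the kindling medians of the 3 higher classes were 0.203 to 0.841, 0.129 to 0.380 and 0.0587 to 0.176 points, the last of these without seizure rat 4. The kainic acid ones were 0.450 to 0.907, 0.103 to 0.301 and -0.00626 to 0.0712 points. Neighbouring kindling classes changed order without seizure rat 2, without seizure rat 3 or without sham rat 2. Neither the classes nor the 2 kinds of tile were tested against each other.

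**Figure D4:**
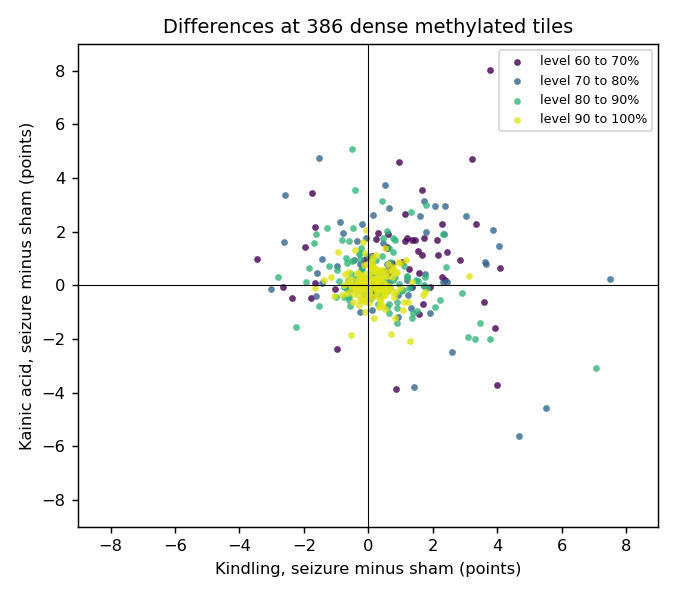
Seizure minus sham difference of each of the 386 tiles in percentage points, kindling on the horizontal and kainic acid on the vertical axis, coloured by level class over 18 rats. Tiles of 90 to 100% gather near 0 on both axes, and 141 tiles lie above 0 on both against 53 below 0 on both.

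No tile passed the test in either model. The 84600 tiles with at least 3 cytosines and a range of at least 5 points over the 18 rats were fitted together with limma, and 181 of the 386 were among them. In kindling, 0 of 181 had a Benjamini-Hochberg adjusted p under 0.05 (0% of all 84600), and the smallest limma adjusted p was 0.784. In the kainic acid model also 0 passed (0% of all 84600), with a smallest limma adjusted p of 0.99995. The mean of both differences and the contrast between them likewise gave 0 of 181, against 0% of all 84600 each. The median 95% interval of a tested tile reached 3.63 points to either side in kindling and 3.54 in kainic acid. These intervals are not adjusted for the number of tiles, so passing the adjusted test took larger differences than these. Even the largest differences, 7.48 points in kindling and 8.02 in kainic acid, did not pass.

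Below that threshold, the counts at an unadjusted limma p under 0.05 were small. In kindling 6 tiles were higher (3.31%), against 3.59% of all tested tiles, and 0 were lower, against 2.12%. In kainic acid 4 were higher (2.21%), against 2.13%, and 0 were lower, against 1.41%. The mean of both differences gave 7 higher, against 3.07%, and 0 lower, against 1.48%. The kindling count depended on single rats. Without seizure rat 4 it was 26 higher and 4 lower, with 9.36% of all tested tiles then under that p in either direction. It was 2 without seizure rat 1 and 2 without seizure rat 2, 3 without sham rat 2 and 3 without sham rat 3, and 11 without sham rat 4, higher in each case. In these fits 4.97 to 6.33% of all tested tiles were under that p. The kainic acid count was 2 higher and 4 lower without seizure rat 1, and 5 higher and 2 lower without seizure rat 2. It was 2 higher without sham rat 2, without sham rat 5 or without sham rat 7. Of all tested tiles, 3.36 to 3.83% were under that p in these kainic acid fits. The count for the mean of both was 22 higher and 1 lower without kindling seizure rat 4. Of all tested tiles 8.08% were then under that p, against 4.56% with all rats. This count was 3 higher without kindling seizure rat 1 or 2, kainic acid seizure rat 3 or kainic acid sham rat 7, and 4 higher without kindling sham rat 2. Without kindling seizure rat 3 it was 2 higher, without kindling sham rat 3 it was 2 higher and 1 lower, and without kainic acid seizure rat 1 it was 1 higher and 2 lower. The share of all tested tiles was 3.77 to 4.91% in these other fits. The groups did not overlap in 3 kindling tiles, all higher, against 1.53% of all tested tiles higher and 0.910% lower. They did not overlap in 3 kainic acid tiles, all higher, against 0.982% higher and 0.507% lower.

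The smallest kindling p belonged to a tile on chromosome 4 from 85142001 to 85143000, with 69 cytosines of which 48 were between 20 and 80%. It had 79.3, 81.9, 79.2 and 82.4% in kindling seizure rats, against 72.6, 68.0, 75.5 and 76.8% in kindling sham rats. All seizure rats stood above all sham rats. The difference was 7.48 points (95% interval 2.34 to 12.6, limma adjusted p = 0.784). In the kainic acid model the tile had 67.9, 77.3 and 76.6% after seizures, against 68.2 to 77.7% with a median of 73.4% in sham rats, which overlapped.

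Next in kindling came a tile on chromosome 20 from 50269001 to 50270000, at a much higher level. It had 93.6, 95.4, 94.9 and 93.0% in kindling seizure rats, against 93.1, 89.6, 89.7 and 92.1% in kindling sham rats. The groups overlapped by 1 sham rat, and the difference was 3.12 points (0.615 to 5.63, limma adjusted p = 0.840). On chromosome 12 from 23873001 to 23874000, kindling seizure rats had 86.3, 87.3, 82.6 and 85.3%, against 82.5, 81.4, 81.4 and 82.3% in kindling sham rats. The groups did not overlap, although seizure rat 3 was within 0.05 points of the highest sham rat. The difference was 3.45 points in kindling (limma adjusted p = 0.863) and -1.41 in the kainic acid model. The other 2 tiles with the smallest p for a higher level differed by 4.05 points on chromosome 1 (81292001 to 81293000) and by 3.59 on chromosome 8 (63636001 to 63637000).

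Among tiles lower after kindling, a tile on chromosome 1 from 199053001 to 199054000 had 83.4, 82.9, 82.0 and 85.5% in kindling seizure rats, against 84.1, 85.7, 87.9 and 87.3% in kindling sham rats. The groups overlapped through seizure rat 4, and the difference was -2.81 points (-5.68 to 0.0629, limma adjusted p = 0.875). The other 4 named tiles differed by -1.63 to -3.45 points, and 2 of them lay in the chromosome 7 group, starting at 11775001 and 11436001. The -3.45 points belonged to chromosome 10 from 109190001 to 109191000, with 56.7, 56.4, 57.8 and 65.1% in kindling seizure rats, against 60.7, 62.3, 65.3 and 61.4% in kindling sham rats. Seizure rats 1 to 3 stood below all sham rats and rat 4 within the sham range, and without rat 4 the difference was -5.48 points. The tile starting at 11436001 differed by -1.63 points, and by -0.99 without sham rat 3. On chromosome 7, the tile starting at 126424001 differed by -2.66 points, and by -4.01 without sham rat 1.

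In the kainic acid model, the smallest p belonged to a tile on chromosome 12 from 16750001 to 16751000, with 57 cytosines. It had 68.4, 65.5 and 67.3% in kainic acid seizure rats, against 59.4 to 65.0% with a median of 62.1% in kainic acid sham rats. All 3 seizure rats stood above all 7 sham rats. The difference was 4.59 points (1.10 to 8.07, limma adjusted p = 0.99995), and in kindling it was 0.949. A tile on chromosome 2 from 177840001 to 177841000 had 81.6, 84.1 and 82.4% after kainic acid seizures, against 74.4 to 81.2% with a median of 79.9% in sham rats. These groups did not overlap either, with a difference of 3.74 points (0.202 to 7.28, limma adjusted p = 0.99995). The other 3 tiles with the smallest p for a higher level differed by 4.71 points on chromosome 3 (1841001 to 1842000), 4.75 on chromosome 19 (26038001 to 26039000) and 5.07 on chromosome 7 (142877001 to 142878000), with overlapping groups. Without kainic acid seizure rat 1 the difference was 1.79 points in the chromosome 3 tile and 2.63 in the chromosome 19 tile.

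The third tile without overlap in each model was looked up after the values were seen. In kindling it lay on chromosome 6 from 93749001 to 93750000, with 91.6, 91.7, 92.5 and 91.1% in seizure rats, against 89.6, 89.8, 89.7 and 90.7% in sham rats. Its difference was 1.75 points (-0.640 to 4.15, limma adjusted p = 0.903). In kainic acid it lay on chromosome 12 from 23444001 to 23445000, with 81.5, 82.3 and 81.6% in seizure rats, against 78.8 to 81.2% with a median of 79.7% in sham rats. The difference there was 1.91 points (-1.27 to 5.10, limma adjusted p = 0.99995). Both intervals included 0 although the groups did not overlap.

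Among tiles lower after kainic acid, chromosome 2 from 161553001 to 161554000 had 73.9, 63.1 and 63.8% in seizure rats, against 66.7 to 79.6% with a median of 73.2% in sham rats. Seizure rats 2 and 3 were below every sham rat, and the value of seizure rat 1 lay within the sham range. The difference was -5.61 points (-12.1 to 0.854, limma adjusted p = 0.99995). It was -9.10 points without seizure rat 1 and -3.71 without seizure rat 2. The same tile differed by 4.66 points the other way in kindling. The remaining 4 named tiles differed by -1.82 to -4.57 points. Without seizure rat 2, the tile on chromosome 1 starting at 73249001 differed by -0.44 points (-3.73 with it) and that on chromosome 7 starting at 12862001 by -0.39 (-1.85 with it). Without seizure rat 1 these were -5.66 and -2.83 points. The tile on chromosome 1 starting at 148414001 differed by -4.57 points, by -7.08 without seizure rat 2 and by -1.51 without seizure rat 3.

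**Figure D5:**
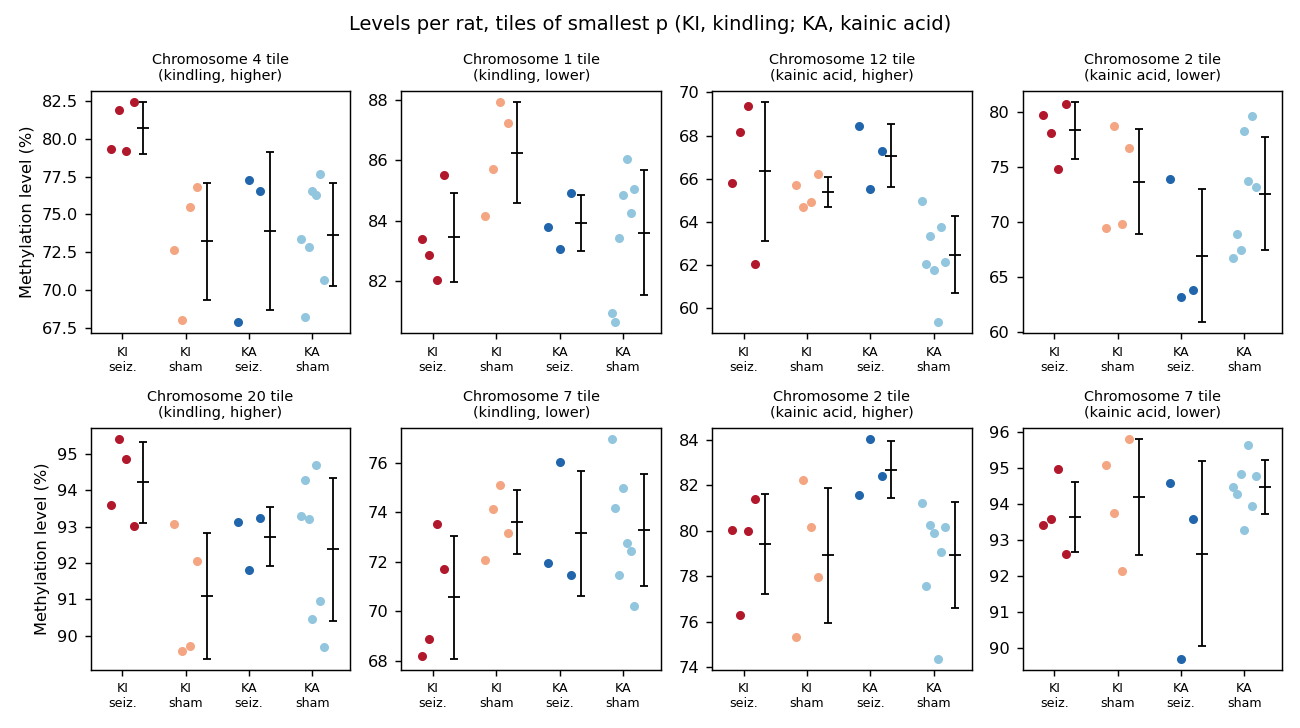
Level (%) in each rat (points) of 8 tiles, for kindling (KI) and kainic acid (KA) the 2 higher and the 2 lower ones of smallest p, with the mean and SD of each group beside them and a vertical axis of its own, not starting at 0, in each panel. Kindling seizure and sham rats do not overlap in the chromosome 4 panel, and kainic acid seizure and sham rats do not overlap in the panels of chromosome 12 and of chromosome 2 (higher).

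The differences in the 2 models showed little relation across tiles. Of the 386, 141 were higher after seizures in both models, 53 lower in both, 101 higher in kindling alone and 91 higher in kainic acid alone. Across the 386 tiles the differences in the 2 models, which have separate sham rats, correlated with Pearson's r of -0.105 and Spearman's rho of -0.0226, given as a description because tiles are not independent. In the contrast between models (kainic acid difference minus kindling difference), 1 tile was higher and 8 lower at an unadjusted limma p under 0.05, against 2.30 and 2.45% of all tested tiles. The number lower was 2 without kindling sham rat 1, 3 without kindling seizure rat 2 or kainic acid seizure rat 2, and 4 without kainic acid seizure rat 3. It was 5 without kindling seizure rat 1, kainic acid sham rat 3 or kainic acid sham rat 5. Of all tested tiles, 4.16 to 5.23% were under that p in either direction in these fits, against 4.75% with all rats. The number higher was 0 to 3 with any 1 rat left out. The tile on chromosome 1 from 148414001 to 148415000 had the smallest p in the downward direction of this contrast after the chromosome 12 tile starting at 23873001, whose contrast was -4.86 points (-9.01 to -0.713). Kindling seizure rats had 73.6, 81.9, 71.4 and 75.3%, against 65.4, 71.3, 70.01 and 73.4% in kindling sham rats. Kainic acid seizure rats had 69.1, 73.0 and 61.8%, against 65.3 to 79.7% with a median of 73.8% in kainic acid sham rats. The groups overlapped in both models. The contrast was -10.1 points (-18.9 to -1.29, limma adjusted p = 0.99987).

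The smallest p for the mean of both differences belonged to a tile on chromosome 3 from 1841001 to 1842000, at 3.97 points (0.412 to 7.52, limma adjusted p = 0.98999), and 2.51 without kainic acid seizure rat 1. This tile had 69.5, 67.3, 68.9 and 61.4% in kindling seizure rats, against 65.1, 63.7, 59.5 and 65.9% in kindling sham rats. After kainic acid seizures it had 72.9, 64.9 and 63.5%, against 59.4 to 67.1% with a median of 61.8% in sham rats. Kindling seizure rats 1 to 3 stood above all kindling sham rats and rat 4 below 3 of them, and the kainic acid groups overlapped.

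The chromosome 7 group showed no common direction in kindling. Of its 25 tiles 12 were higher, with a median difference of -0.0351 points and extremes of -3.03 and 2.36. With kainic acid 16 were higher, with a median of 0.815 points and extremes of -1.85 and 2.97. In the group of 5 tiles on chromosome 1 from 148414001 to 148459000, all 5 were higher in kindling, with a median of 1.29 points, and 1 was higher in kainic acid, with a median of -0.374. The 5-tile groups on chromosome 7 from 116745001 to 117730000 and on chromosome 8 from 116882001 to 117362000 also had all 5 higher in kindling, and 3 higher in kainic acid. In the other groups of 5, 3 and 4 were higher in kindling and 4 and 1 in kainic acid, on chromosome 1 from 72363001 and chromosome 18 from 292001. Of all 386 tiles, 62.7% were higher in kindling and 60.1% in kainic acid. Tiles of a group are neighbours and do not count as independent.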

How the data were processed

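The deposited table of levels holds beta values (methylation fractions per cytosine, from 0 to 1) that the authors made from reduced representation bisulfite libraries. Per the submitters' processing notes the build was rn6 and the tools included Bismark, Bowtie2, methylKit, FastQC and Trim Galore. The sources used here state no version, read number or coverage filter, so no value carries a counting interval. Reads from near-identical repeats may be shared between copies.

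Fractions were multiplied to percent and averaged with equal weight per cytosine in 1000 bp tiles. Tiles with at least 3 cytosines and a range of at least 5 points over 18 rats were fitted with limma 3.58.1 in R 4.3.3 (4 group means, variance trend, 14 residual degrees of freedom, Benjamini-Hochberg adjustment over 84600 tiles). The fit was tested on simulated data. No label gives a batch. The p-values measure the spread between individual rats.

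Named tiles are the 5 with most cytosines, highest level, lowest level and largest range, and, in each direction, the 5 of smallest p in kindling and in kainic acid and the 2 of smallest p in the mean of both and in the contrast between models, with tiles just outside the thresholds and the longest runs. The tiles, lists and tests were chosen with earlier results of these data known. Alternatives changed the tile offset, length, minimums, strands, scale, filter, block, weights and rats. Other software was Python 3.11.15, pandas 2.3.3, matplotlib 3.10.9 and the data.table package (1.17.8).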

Additional observations from a re-analysis of the deposited data

Results flagged for a closer look

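In groups of 4 to 7 rats, 114 sets of values (37 named tiles and the mean over all 386) were searched for a rat far from the rest of its group, a criterion that chance meets in about 1 of 20 groups. It was met 4 times, each time by a kindling seizure rat. In the mean over the 386 tiles, kindling seizure rat 4 had 84.7%, and the other 3 had 85.4 to 85.5%. On chromosome 6, in the tile starting at 132239001, rat 4 had 56.0%, against 65.3 to 66.4% in the other 3. On chromosome 10, in the tile starting at 109190001, rat 4 had 65.1%, against 56.4 to 57.8%. On chromosome 7, in the tile starting at 12771001, rat 3 had 79.8%, against 82.6 to 83.1%. What sets these values apart was not tested.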

How the results depend on the processing

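The 386 tiles depend on the minimum: 1170 tiles qualified with at least 30 cytosines, 155 with at least 50, 596 with strands averaged and at least 20 CpGs, and 3302 as 500 bp tiles with at least 20 cytosines. With at least 50 cytosines the fullest 2 Mb window held 7 tiles instead of 14. The tiles were chosen on all 18 rats, and the choice was kept when a rat was left out. Minus the median over all tested tiles, which unlike the 386 passed the range filter, the median difference was -0.0426 points in kindling (0.256 as measured) and -0.126 in kainic acid (0.184 as measured). Minus the median over all tiles of 3 or more cytosines, chosen after seeing the data, it was 0.0645 and -0.0583. For the 181 tested tiles minus all tested tiles it was 0.379 and 0.300. Leaving out 1 rat at a time gave a mean difference of 0.370 to 0.622 points in kindling and 0.194 to 0.528 in kainic acid. The number of tiles passing the test was 0 in all 102 alternative counts, from 26 other settings over 4 contrasts, with a smallest limma adjusted p of 0.391, reached in kindling without seizure rat 4. With the replicate block it was also 0, with 3 kindling and 2 kainic acid tiles at an unadjusted limma p under 0.05, against 5.81 and 4.08% of all tested tiles. The labels state no pairing of rats. Deviations of same-numbered seizure and sham rats correlated across tiles at -0.111 to 0.155 in kindling and -0.0418 to -0.0156 in kainic acid. Most rats correlated better with another number, but the best of several others was taken, so this cannot show whether rats were paired.  At an unadjusted limma p under 0.05, array weights gave 15 kindling tiles (6 as reported), against 6.59% of all tested tiles. They gave 18 for the mean of both (7 as reported), against 6.45%. Averaged strands, with 298 tiles tested, gave 15 in kindling, against 5.69%, and 7 in kainic acid (4 as reported), against 3.56%. Without the range filter, with all 386 fitted, these were 13 and 10, against 5.09 and 4.06%. With a filter of 10 points, with 63 tested, they were 1 and 0, against 5.74 and 3.46%. In the reported fit the shares of all tested tiles were 5.71% in kindling, 3.54% in kainic acid and 4.56% for the mean of both. The 674 alternative values of the tiles named for their small p all kept direction and side of the threshold. Many of them could not change direction. A difference within 1 model stays the same when the range filter changes or a rat of the other model is left out. The tiles were also picked by p in these same data, so this count says little about how stable they are. With unknown depth, a tile of 40 cytosines cannot be told to be more or less precise than one of 156.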

Other observations

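Some methylated tiles had CpGs at 1 repeated spacing, a pattern looked for after the values were seen. The spacing from 10 to 400 bp at which the most CpGs had another CpG exactly that far along was taken for each tile. In 6 of the 386 tiles (1.55%) at least 40% of CpGs had such a partner, against 7 of the 11511 dense tiles under 20% (0.0608%) and 0 of the 732 in between. Among tiles with under 60 cytosines these were 4 of 313 (1.28%), against 3 of 3975 (0.0755%). The median share at the best spacing was similar in all 3 kinds of tile, at 17.2, 18.7 and 17.3%, so the pattern belonged to single tiles. On chromosome 18 from 47894001 to 47895000, 13 of 21 CpGs had a partner at 67 bp, and the tile averaged 92.8%. On chromosome 1 from 26289001 to 26290000, 18 of 32 had one at 22 bp, with a level of 79.3%. On chromosome 7 from 141598001 to 141599000, 18 of 45 had one at 57 bp, with a level of 97.0%. Without the sequence of this build, whether these are tandem repeats was not tested.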
